A study of Arabidopsis thaliana with 12 samples.

Results

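The genes described here are 33 nuclear genes for subunits of the photosynthetic electron transport chain, chosen by name from the 33557 genes in the expression tables. They comprise 12 subunits of photosystem I, 11 subunits of photosystem II or its oxygen-evolving part, 3 subunits of the chloroplast ATP synthase, and 7 genes for the Rieske protein, plastocyanin, ferredoxin and ferredoxin-NADP reductase. Whole Arabidopsis thaliana seedlings of the accession Col-0 were compared with seedlings of sfps-2 (SFPS -/-), a line labelled as a knockout of SFPS (AT1G30480) in Col-0. SFPS is a splicing factor of the phytochrome pathway. Seedlings of both genotypes grew in darkness on medium without sucrose for 4 days and were then either kept dark for a further 3 h or exposed for 3 h to continuous red light of 7 umol per square metre per second. The 4 groups were wild type in the dark, wild type after red light, sfps-2 in the dark and sfps-2 after red light, with 3 libraries of rRNA-depleted total RNA in each, 12 in all. Separate cultures for the libraries of a group are not stated in the labels, so every error given here may be technical. Because whole seedlings were extracted, fewer cells with a transcript and less of it per cell cannot be told apart.

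Photosystem II takes electrons from water and passes them through plastoquinone, the cytochrome b6f complex and plastocyanin to photosystem I, which reduces ferredoxin; ferredoxin-NADP reductase then makes NADPH, and the ATP synthase uses the proton gradient. The reaction centre cores are encoded in the chloroplast, whereas the small, peripheral and extrinsic subunits listed here are made in the cytosol and imported. In seedlings that germinate in darkness the plastids are etioplasts without photosystems, and light perceived by phytochromes and cryptochromes starts the synthesis of these proteins. Several of the subunits are encoded by a pair of similar gene copies in Arabidopsis.

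The tables give 1 FPKM value (fragments per kilobase of transcript per unit of sequencing depth, a level per length) for each group and none for each library. SFPS itself was listed at 7.88 FPKM in dark wild type and at 1.86 in dark sfps-2, and at 7.82 and 1.97 FPKM after red light. Its log2 difference between sfps-2 and wild type was -2.14 (SE 0.24) in the dark and -2.04 (SE 0.25) after red light, called lower in both, so the transcript was reduced but still listed. The chloroplast-encoded partners could not be followed, since 133 chloroplast genes were listed at 0 and none was tested. Junction reads over 580 splicing bins listed for all 12 libraries and outside the 33 genes lay between 328563 and 481455 in the 12 libraries, which differ by up to 1.47 times. The 3 etiolated seedling markers (PORA, PIL1 and ATHB2) summed to 314 FPKM in dark wild type and 45.6 FPKM after red light, and to 424 and 48.8 FPKM in sfps-2, with all 3 called lower by light in both genotypes. The 33 genes were all detected in all 4 groups, between 24.8 and 1879.8 FPKM.

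The first comparison asked what 3 h of red light does to these genes in wild type. All 33 rose. A gene counts as called with a deposited q under 0.05 and at least a 1.5-fold difference of group FPKM; by this rule 14.9% of the 20635 genes tested counted as higher and 5.85% as lower. Together the 33 genes went from 3313 FPKM in the dark to 24223 FPKM after red light, or from 0.323% to 2.35% of all FPKM. The median log2 change over the 33 was 2.99, a 7.92-fold rise, beside a median of 0.01 over all genes tested. The standard errors of these log2 changes lay between 0.13 and 0.16, and all 33 p-values were at the lowest value that the authors' deposited table can hold, 5e-05 (q = 2.92e-04). The rise ranged from the 93.8th percentile of all tested genes for ATPG to the 99.6th for PSAH-2, and 31 of the 33 were in the top 5%.

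Photosystem I genes had a median log2 change of 3.07. PSAH-2 (AT1G52230) rose most, from 48.0 to 1075 FPKM, a log2 change of 4.48; PsaH, with PsaL and PsaO, forms the side of photosystem I where light-harvesting complex II docks in state transitions. PSAL (AT4G12800) rose from 116 to 879.9 FPKM (log2 2.92), and PSAO (AT1G08380) from 127 to 1425 FPKM (log2 3.49). PSAK (AT1G30380), whose protein sits at the light-harvesting side with PsaG, went from 60.9 to 931 FPKM (log2 3.93). PSAG (AT1G55670) rose less, from 113 to 736 FPKM (log2 2.71). Of the stromal subunits that bind ferredoxin, PSAD-1 (AT4G02770) rose from 74.4 to 646 FPKM (log2 3.12) and PSAD-2 (AT1G03130) from 44.5 to 362 FPKM (log2 3.03). PSAE-1 (AT4G28750) rose from 95.2 to 966 FPKM (log2 3.34), but its copy PSAE-2 (AT2G20260) from 130 to 368 FPKM, a log2 change of 1.51. PSAF (AT1G31330), whose protein guides plastocyanin on the lumenal side, rose from 99.0 to 985 FPKM (log2 3.31). The other lumenal subunit gene, PSAN (AT5G64040), rose from 133 to 853 FPKM (log2 2.69), and PSAH-1 (AT3G16140) from 95.2 to 426 FPKM (log2 2.16).

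Photosystem II genes had a median log2 change of 2.99. The gene with the greatest rise was PSBS (AT1G44575), the sensor protein of non-photochemical quenching, which went from 58.5 to 899 FPKM (log2 3.94). The extrinsic proteins PsbO, PsbP and PsbQ cover the manganese cluster that oxidises water. Of these, PSBO-1 (AT5G66570) started high, at 225 FPKM, and rose to 1033 FPKM (log2 2.2), while PSBO-2 (AT3G50820) rose from 31.3 to 374 FPKM (log2 3.58). PSBP-1 (AT1G06680) rose from 111 to 746 FPKM (log2 2.75). The PsbQ copies rose to nearly the same level, PSBQ-1 (AT4G21280) from 52.8 to 451 FPKM (log2 3.1) and PSBQ-2 (AT4G05180) from 67.3 to 458 FPKM (log2 2.77). PSBR (AT1G79040), a small subunit needed to hold the extrinsic proteins, had the highest dark level of the 33, 420.3 FPKM, and reached 1852 FPKM (log2 2.14). Of the small subunits, PSBX (AT2G06520) rose from 197 to 1469 FPKM (log2 2.90) and PSBW (AT2G30570), which stabilises supercomplexes with the antenna, from 137 to 1154 FPKM (log2 3.08). PSBTN (AT3G21055) rose from 65.0 to 626 FPKM (log2 3.27), and PSBY (AT1G67740) from 31.9 to 253 FPKM (log2 2.99).

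The ATP synthase and the electron carriers rose less at the median, by a log2 of 1.94 and 2.50. ATPG (AT4G32260), for a subunit of the stalk that holds the catalytic head, had the smallest rise of all, from 75.9 to 211 FPKM (log2 1.48). ATPC1 (AT4G04640), for the rotating gamma subunit, rose from 77.7 to 298 FPKM (log2 1.94), and ATPD (AT4G09650), for the delta subunit, from 35.6 to 368 FPKM (log2 3.37). PETC (AT4G03280), for the Rieske iron-sulphur protein of cytochrome b6f, rose from 78.2 to 332 FPKM (log2 2.09). The ferredoxin gene FD2 (AT1G60950) reached the highest level of the 33 after red light, from 221 to 1879.8 FPKM (log2 3.09), and FD1 (AT1G10960) rose from 75.1 to 649.7 FPKM (log2 3.11). The reductase genes stayed the lowest: FNR1 (AT5G66190) rose from 26.3 to 149 FPKM (log2 2.50) and FNR2 (AT1G20020) from 24.8 to 114 FPKM (log2 2.2). Plastocyanin is described with the gene pairs. The spread of levels among the 33 genes was much alike before and after light, with a ratio of highest to lowest of 16.9 in the dark and 16.4 after red light and an SD of log2 FPKM of 0.95 and 1.05.

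**Figure D1:**
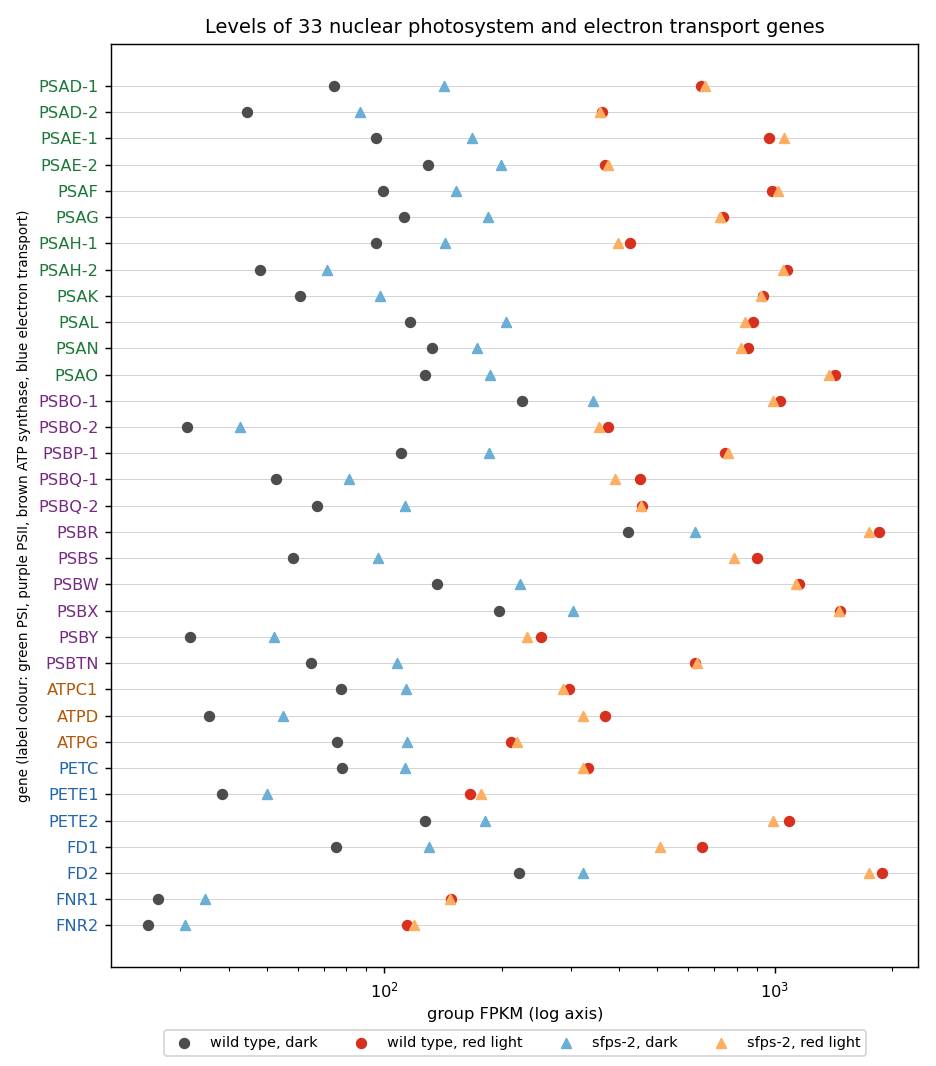
Group FPKM of each of the 33 genes on a log axis, 1 point for each of the 4 groups, with gene names coloured by complex; the values are the authors' group values with no spread between libraries. Both red light points lie to the right of both dark points for all 33 genes, and the sfps-2 dark point lies to the right of the wild-type dark point.

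In 8 cases a subunit or carrier is encoded by a pair of copies, and 4 of these 8 pairs changed their balance with light. Of the summed FPKM of both PsaE genes, PSAE-1 made up 42.4% in dark wild type and 72.4% after red light, and 45.8% and 73.8% in sfps-2. For PsaH the order of the copies changed the other way: PSAH-1 held 66.5% in the dark and 28.4% after red light in wild type, and 66.8% and 27.3% in sfps-2. PSBO-1 held 87.8% in the dark and 73.4% after red light in wild type, and 88.9% and 73.7% in sfps-2. The plastocyanin gene PETE1 (AT1G76100) held 23.2% and then 13.2% in wild type, as it rose from 38.5 to 165 FPKM (log2 2.1) while PETE2 (AT1G20340) rose from 127 to 1089.5 FPKM (log2 3.1). In sfps-2 the PETE1 share went from 21.7% to 15.2%.

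The difference between copies in the log2 light change, with its 95% interval, was 1.84 (1.45 to 2.23) for PSAE-1 over PSAE-2 in wild type and 1.74 (1.24 to 2.24) in sfps-2. For PSAH-2 over PSAH-1 it was 2.32 (1.95 to 2.69) and 2.42 (1.93 to 2.91). For PSBO-2 over PSBO-1 it was 1.38 (1.00 to 1.77) and 1.51 (0.96 to 2.07). For PETE2 over PETE1 it was 0.99 (0.62 to 1.37) and 0.63 (0.11 to 1.15). The other 4 pairs had intervals that included 0 in both genotypes. In wild type these were 0.09 (-0.28 to 0.46) for PSAD-1 over PSAD-2, 0.33 (-0.04 to 0.70) for PSBQ-1 over PSBQ-2, 0.03 (-0.35 to 0.41) for FD1 over FD2 and 0.30 (-0.10 to 0.70) for FNR1 over FNR2. All these light intervals rest on extrapolated errors, since all 33 p-values were at the lowest possible value in both genotypes. The larger errors from the test statistic as deposited were not tried for the pairs. The PETE interval in sfps-2, whose lower end was 0.11, is the one closest to including 0 among the 4 pairs. Between genotypes none of the 8 pairs had an interval that excluded 0, in the dark or after red light. Reads from stretches that the copies share may be split by the counting: the coding sequences of a pair were from 75.0% (PETE) to 88.0% (PSAD) identical, and the longest run of identical bases was from 17 (PETE and FNR) to 35 (PSAD).

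**Figure D2:**
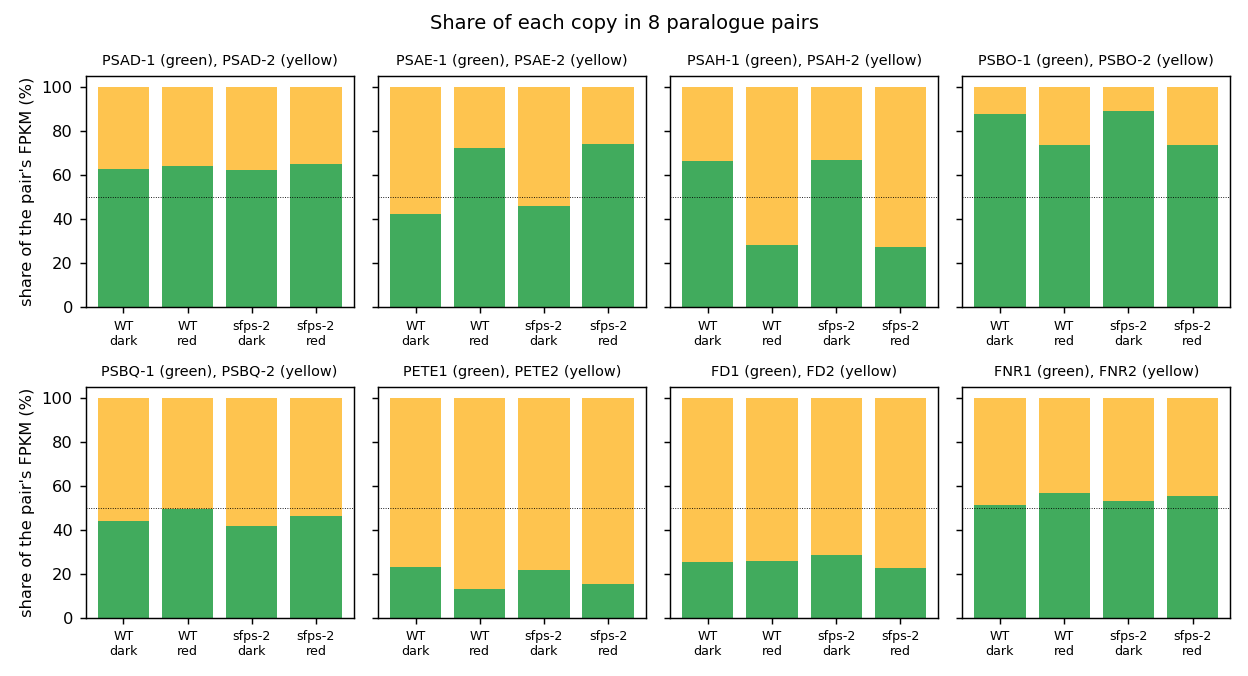
Share of each copy (%) in the summed FPKM of 8 gene pairs in the 4 groups, as stacked bars from 0. The dark and red light bars differ for PSAE, PSAH, PSBO and PETE (for PSAE-1 in wild type from 42.4% to 72.4%), and the wild-type and sfps-2 bars of the same light condition lie close together.

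The bases just before the RefSeq gene start (TAIR10.1) are shown for both PsaE and both PsaH copies, since their light changes differed most within a pair, and for the PsbQ copies, whose intervals included 0. Each runs 5′ to 3′ on the gene's strand over at most 250 bases and is shortened where an exon of a neighbouring gene begins. Capitals mark the G-box CACGTG, the I-box GATAAG and the GT-1 site GGTTAA, read on either strand. PSAE-1 is chr4:14204062-14204311 on the minus strand, PSAE-2 chr2:8736598-8736733 on the plus strand, PSAH-1 chr3:5469595-5469844 on the minus strand, PSAH-2 chr1:19454766-19454797 on the plus strand, PSBQ-1 chr4:11334169-11334351 on the plus strand and PSBQ-2 chr4:2673244-2673493 on the minus strand.
PSAE-1: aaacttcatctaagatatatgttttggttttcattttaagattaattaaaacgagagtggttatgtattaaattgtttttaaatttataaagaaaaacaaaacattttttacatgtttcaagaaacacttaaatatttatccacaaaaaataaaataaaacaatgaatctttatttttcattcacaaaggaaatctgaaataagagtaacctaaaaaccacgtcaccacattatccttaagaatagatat
PSAE-2: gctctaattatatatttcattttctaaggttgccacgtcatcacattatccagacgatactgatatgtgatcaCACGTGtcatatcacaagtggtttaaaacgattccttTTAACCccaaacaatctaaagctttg
PSAH-1: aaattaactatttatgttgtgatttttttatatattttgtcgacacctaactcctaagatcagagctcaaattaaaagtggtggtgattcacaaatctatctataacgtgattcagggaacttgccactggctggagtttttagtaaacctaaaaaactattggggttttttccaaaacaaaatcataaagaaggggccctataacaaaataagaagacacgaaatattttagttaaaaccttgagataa
PSAH-2: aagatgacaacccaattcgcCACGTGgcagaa
PSBQ-1: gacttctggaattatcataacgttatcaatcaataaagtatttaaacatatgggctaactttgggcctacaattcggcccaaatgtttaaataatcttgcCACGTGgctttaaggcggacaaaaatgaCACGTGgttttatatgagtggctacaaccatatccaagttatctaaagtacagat
PSBQ-2: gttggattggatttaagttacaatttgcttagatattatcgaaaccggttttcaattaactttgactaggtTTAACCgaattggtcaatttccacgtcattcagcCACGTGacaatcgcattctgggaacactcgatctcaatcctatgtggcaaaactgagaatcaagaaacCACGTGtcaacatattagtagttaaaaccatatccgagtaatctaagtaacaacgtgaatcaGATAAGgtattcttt
In the PsaE pair the copy with the smaller rise, PSAE-2, had the G-box upstream, its first base 63 bases before the gene start, while PSAE-1 had no match upstream and a G-box inside the gene. In the PsaH pair the copy with the larger rise, PSAH-2, had one in the bases shown, 12 bases before its start, and PSAH-1 had none upstream and a G-box inside the gene. Both PsbQ copies had a pair of G-boxes, 83 and 55 bases before the start of PSBQ-1 and 145 and 77 bases before that of PSBQ-2. Both PsaE copies had a G-box followed by a GT-1 site. These began 63 and 26 bases before the gene start in PSAE-2, and 8 and 44 bases past it in PSAE-1. The G-box of PSAH-1 began 18 bases past its gene start. Upstream or inside thus depends on where RefSeq places the gene start. By that start, an upstream G-box went with the smaller rise in the PsaE pair and with the larger rise in the PsaH pair.

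The motifs were counted over all 33 genes in a window from 250 bases before to 50 bases after the RefSeq gene start, on both strands, including parts inside neighbouring genes. The G-box, which basic leucine zipper and PIF factors bind, was found in 12 of 33 windows (36.4%), beside 9.02% of 19941 windows of tested protein-coding genes and 10.7% of 1940 windows of genes called higher by light in both genotypes. The I-box occurred in 18 of 33 (54.5%), beside 14.9% and 18.4%. The GT-1 site occurred in 8 (24.2%), beside 17.3% and 16.3%. The evening element AAAATATCT was in 1 window (3.03%, beside 2.96%) and the CCA1 site AAAAATCT in 2 (6.06%, beside 8.10%). With only the bases upstream of the gene start, the G-box was in 6 windows (18.2%, beside 7.57%) and the I-box in 9 (27.3%, beside 12.4%). These counts were not tested, and 6 of the 33 windows held none of the 5 motifs.

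The second comparison asked what red light does in sfps-2. Again all 33 genes rose, where 12.4% of 20970 genes tested were called higher and 8.97% called lower. Together they went from 5128 to 23369 FPKM, or from 0.488% to 2.31% of all FPKM. The median log2 change was 2.15, a 4.43-fold rise, beside -0.01 over all genes tested, with standard errors from 0.17 to 0.22. By complex the medians were 2.24 for photosystem I, 2.26 for photosystem II, 1.34 for the ATP synthase and 1.97 for the electron carriers. PSAH-2 again rose most, from 71.2 to 1053 FPKM (log2 3.89), followed by PSAK (97.8 to 921 FPKM, log2 3.24). The smallest rises were in PSAE-2, from 199 to 374 FPKM (log2 0.91), and ATPG, from 114 to 219 FPKM (log2 0.94).

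All 33 genes had a smaller log2 light change in sfps-2 than in wild type, with a median difference of -0.66, beside -0.04 over 20420 genes tested in both, of which 56.9% had a difference below 0. Among 1952 genes called higher by light in both genotypes the median difference was -0.27. The fold in sfps-2 was from 45.2% (FD1) to 83.9% (FNR2) of the fold in wild type, with a median of 63.3%. The difference itself was tested for each gene from the errors of the fold changes, with a normal p and Benjamini-Hochberg adjustment over all 20420 genes. By this test 15 of the 33 had a smaller rise in sfps-2 and none a larger one, where 4.58% of all genes had a smaller and 1.36% a larger change. The 15 were 7 photosystem I genes, 6 photosystem II genes, ATPD and FD1. This count depends on how the errors are read: with errors taken from the deposited test statistic as it stands, which makes them larger, none of the 33 passed, 9 had an unadjusted p under 0.05, and the lowest adjusted p was 0.135.

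FD1, a minor leaf ferredoxin, differed most: it went from 75.1 to 649.7 FPKM in wild type and from 130 to 509 FPKM in sfps-2, so its log2 rise was 3.11 against 1.97, a difference of -1.14 (adjusted p = 9.02e-06). FD2, the major leaf ferredoxin, went from 324 to 1747 FPKM in sfps-2 (log2 2.43). Both PsaD copies were also among the 15: PSAD-2 went from 86.9 to 357 FPKM in sfps-2 (log2 2.04), a difference of -0.99 (adjusted p = 2.18e-04), and PSAD-1 from 142 to 665 FPKM (log2 2.23), a difference of -0.89 (adjusted p = 0.00279). PSBS went from 96.2 to 785 FPKM (log2 3.03), a difference of -0.91, and PSAL from 205 to 839 FPKM (log2 2.03), a difference of -0.88. In these 5 genes the dark level was higher in sfps-2, and the red light level was within a factor of 1.5 of wild type. The differences of the other 10 were -0.84 for PSBY, -0.83 for PSBQ-1, -0.82 for ATPD, -0.76 for PSBQ-2, -0.74 for PSAG, -0.73 for PSBW, -0.71 for PSBTN, -0.70 for PSAK, -0.70 for PSAH-1 and -0.69 for PSAE-1. The smallest differences were -0.25 for FNR2, -0.28 for PETE1 and -0.42 for FNR1, none of which passed.

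**Figure D3:**
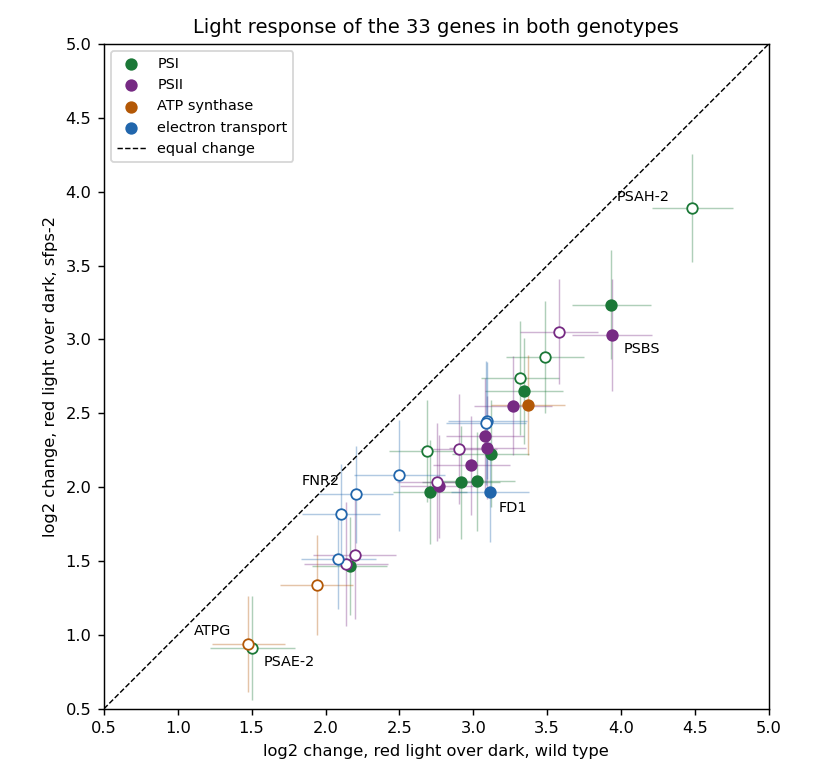
Log2 light change in sfps-2 (vertical axis) against wild type (horizontal axis) for the 33 genes, with 95% intervals, coloured by complex; filled points passed the test of the difference and the diagonal marks equal change. All 33 points lie below the diagonal, from PSAE-2 and ATPG at the lower left to PSAH-2 at the upper right (4.48 and 3.89).

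The third comparison asked what the loss of SFPS does in the dark, where the genes are lower than after red light. In sfps-2, 13 of the 33 genes were called higher and none lower; over 20698 genes tested, 5.22% were called higher and 1.99% lower. The 13 were 6 photosystem I genes, 6 photosystem II genes and FD1. The 3 ATP synthase genes all passed q but stayed under the fold of 1.5, with log2 differences from 0.49 to 0.57. The log2 difference was above 0 for all 33, with a median of 0.56 (1.47-fold) beside 0.04 over all genes tested, and for 31 the 95% interval lay above 0. By q alone 28 of the 33 passed, beside 6.86% of all genes tested, so 15 passed q but not the fold of 1.5. The remaining 5 were FNR2 (log2 0.26), PETE1 (0.33), PSAN (0.33), FNR1 (0.35) and PSBO-2 (0.39).

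PSAD-2 and PSAD-1 had the largest differences, from 45.4 FPKM (wild type) to 85.5 FPKM (sfps-2), log2 0.91, and from 76.1 to 139.6 FPKM, log2 0.88. PSAE-1 followed with 97.5 and 165 FPKM (log2 0.76), so that 3 of the 4 genes for the ferredoxin-docking subunits were among the 13. PSAL had 119.8 and 202 FPKM (log2 0.75), PSAG 115 and 181.5 FPKM (log2 0.66), and PSAK 62.2 and 96.1 FPKM (log2 0.63). In photosystem II the oxygen-evolving proteins were represented by PSBQ-2, at 68.8 and 111.5 FPKM (log2 0.70), and PSBP-1, at 113 and 182.5 FPKM (log2 0.69). PSBTN had 66.4 and 106 FPKM (log2 0.67), PSBS 59.6 and 94.5 FPKM (log2 0.67), PSBW 139.5 and 219 FPKM (log2 0.65), and PSBY 32.8 and 51.5 FPKM (log2 0.65). FD1, with 77.3 and 128 FPKM (log2 0.73), was the only carrier gene among the 13. These values come from the genotype tables, which the authors scaled separately from the light tables, by 0.978 to 1.02 for the same group.

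Markers of seed storage moved in the same comparison. All 8 seed storage protein genes (SESA1 to SESA5, CRA1, CRU2 and CRU3) were called higher in dark sfps-2, with a median log2 difference of 4.28. Their summed level was 35.6 FPKM in dark wild type, 86.6 FPKM in wild type after red light, 495 FPKM in dark sfps-2 and 603 FPKM in sfps-2 after red light, and none was listed at 0. The sum hides the single genes: with light in sfps-2, 0 of the 8 were called higher and 4 lower. The median log2 change there was -0.50, and only SESA5, CRA1 and CRU3 had a higher level after light. Of the 3 etiolated seedling markers 1 was called in the dark, PORA, with 277 FPKM in sfps-2 against 176 in wild type (log2 0.65); PIL1 (log2 0.11) and ATHB2 (log2 -0.11) were not. Of the 6 root markers (PRP1, PRP3, EXPA7, EXPA18, MYB36 and CASP1) none was called in the dark, with a summed level of 295 FPKM (wild type) and 241 FPKM (sfps-2). In the test of the difference of light responses 7 of the 8 seed storage genes had a smaller change in sfps-2 and 4 of the 6 root markers a larger one. The part of these cells or transcripts in the difference of the photosystem genes was not tested.

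After red light, the fourth comparison, none of the 33 genes was called between genotypes, where 3.28% of 20867 tested genes passed as higher and 3.23% as lower. Of the 33, 1 gene, FD1, had an unadjusted p under 0.05 in the authors' deposited table (p = 0.0141, q = 0.125), with 654.7 FPKM in the wild-type group against 497 FPKM in the mutant group, so that its log2 difference was -0.40 with a 95% interval from -0.71 to -0.08. The 33 log2 differences ran from that value to 0.08 for PSAE-1, 28 below and 5 above 0, with a median of -0.07. Their 95% intervals together covered -0.71 to 0.43, so smaller differences in either direction were not excluded. In the same comparison 6 of the 8 seed storage genes and 4 of the 6 root markers (PRP1, PRP3, EXPA7 and EXPA18) were called higher, beside 3.28% of all genes. These 4 root markers were low after red light. By the light comparisons they lay between 0.26 (PRP1) and 1.87 FPKM (EXPA7) in wild type, and between 1.09 (PRP1) and 5.27 FPKM (EXPA7) in sfps-2. Of the other two, MYB36 had a log2 difference of -0.10 and CASP1, which makes up most of the summed level of 255 FPKM (wild type) and 207 FPKM (sfps-2), one of -0.46 (q = 0.0316 in the authors' deposited table, under the fold of 1.5). The difference of light responses and the genotype comparisons use the same 12 libraries: taking the dark genotype difference from the red light one gives the former to within a gap of -0.0226 to -0.0021 on the log2 scale for all 33 genes, so they are not separate evidence.

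**Figure D4:**
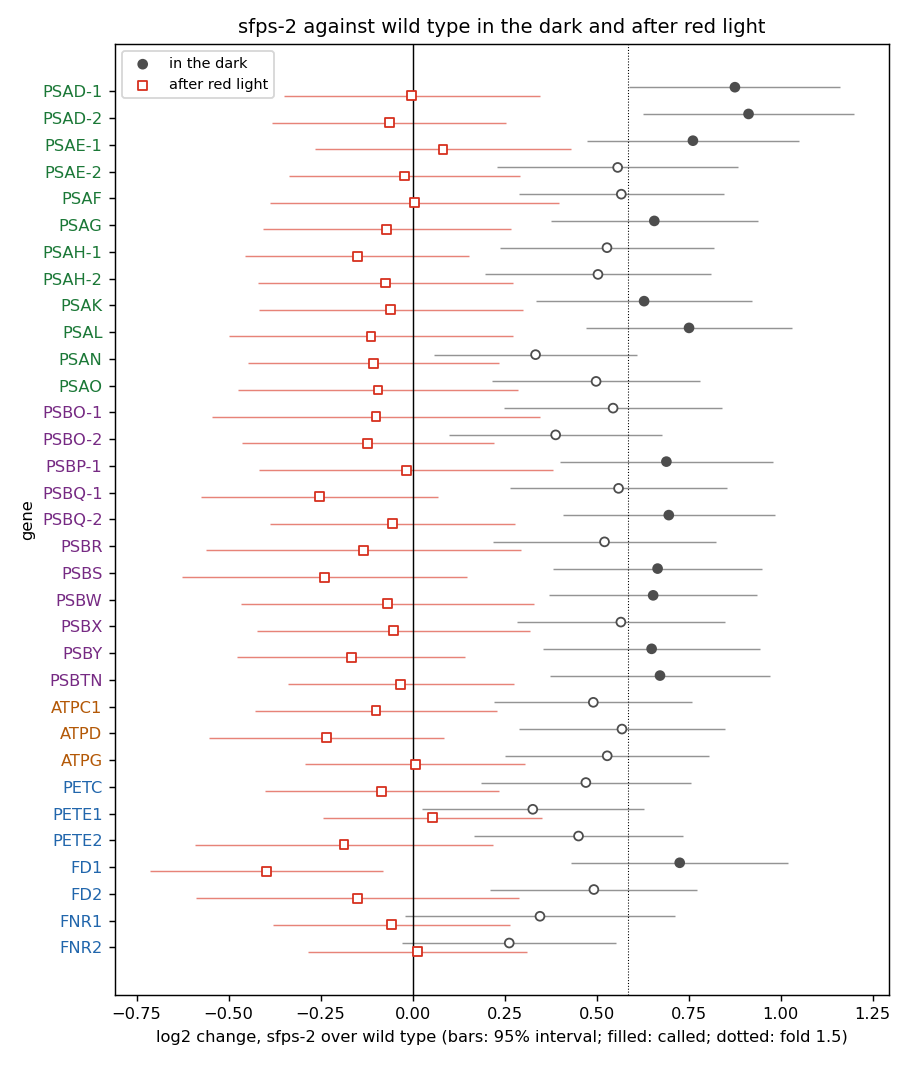
Log2 difference of sfps-2 from wild type for the 33 genes, in the dark and after red light, with 95% intervals; filled points were called and dotted lines mark a fold of 1.5. All dark points lie above 0, from 0.26 (FNR2) to 0.91 (PSAD-2), while the red light points lie between -0.40 (FD1) and 0.08 (PSAE-1) with none called.

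Splicing was examined because SFPS is a splicing factor. Of the 33 genes, 12 (36.4%) have no intron in the RefSeq annotation, beside 15.9% of 19942 tested protein-coding genes, and the median number of introns is 2 beside 3. The authors listed events at an FDR under 0.05 and a change of at least 3 points in the retained or included share. In all, 5 such events fell in the 33 genes, all of them retention of intron 1, in FNR2 and ATPG. In the wild-type light comparison 2 of 33 genes had a listed event, beside 2.92% of genes tested; in the sfps-2 light comparison 2, beside 1.92%; after red light between genotypes 1, beside 3.92%; and in the dark between genotypes none, beside 3.75%. None of the 5 reached the authors' stricter change of 10 points.

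The introns are shown because they carry these events, on the gene's strand, with the first 6 and last 3 bases in capitals to mark the splice sites. FNR2 intron 1 of 8 is chr1:6942956-6943227 on the plus strand, 272 bases long, and ATPG intron 1, its only one, is chr4:15574024-15574091 on the minus strand, 68 bases long (TAIR10.1).
FNR2 intron 1: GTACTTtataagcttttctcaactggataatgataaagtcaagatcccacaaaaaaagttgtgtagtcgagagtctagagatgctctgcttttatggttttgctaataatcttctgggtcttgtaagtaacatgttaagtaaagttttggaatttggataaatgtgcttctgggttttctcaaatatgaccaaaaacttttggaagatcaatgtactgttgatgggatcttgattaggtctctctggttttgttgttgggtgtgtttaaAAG
ATPG intron 1: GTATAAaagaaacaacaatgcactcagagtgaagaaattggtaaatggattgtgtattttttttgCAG
Both introns lie between coding exons, and the length of neither is a multiple of 3. Read on in frame, a transcript that keeps the FNR2 intron meets a TAA stop at intron base 28 after 44 codons, and one that keeps the ATPG intron meets TAA at intron base 4 after 166 codons. Of the RefSeq transcripts, 1 of 3 for FNR2 and 0 of 1 for ATPG retain the intron.

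FNR2, a ferredoxin-NADP reductase of leaves, was listed by the authors as keeping intron 1 more after light in both genotypes and less in sfps-2 than in wild type after red light. Retention is the mean number of reads at the exon-intron boundaries as a share of that mean plus the spliced reads. In rRNA-depleted total RNA this share cannot tell unspliced precursor from a finished transcript that keeps the intron, for FNR2 or ATPG. For FNR2 it was 21.0%, 16.7% and 22.6% in the 3 dark wild-type libraries and 27.9%, 26.2% and 27.3% after red light. In sfps-2 it was 14.1%, 11.8% and 16.4% in the dark and 17.5%, 21.9% and 16.8% after red light. The groups did not overlap in any of the 4 comparisons, although the highest dark sfps-2 library (16.4%) lay just below the lowest dark wild-type library (16.7%). The means ± SD (n = 3) were 20.1% ± 3.07 and 27.1% ± 0.887 in wild type and 14.1% ± 2.31 and 18.7% ± 2.80 in sfps-2. The authors' deposited table gave a change of 7.24 points with light in wild type (FDR = 4.52e-09), 5.14 points in sfps-2 (FDR = 2.09e-04) and -8.26 points between genotypes after red light (FDR = 3.02e-04). The shares in it come from summed reads, and the FDR is the authors' own value for the bin. A different quantity, the log2 odds of retention per library, was tested here with limma within the events of each list. It gave 0.57 (adjusted p = 0.0677), 0.48 (adjusted p = 0.130) and -0.70 (adjusted p = 0.0196), so that only the genotype difference passed by limma. The authors had already selected these events for change in the same libraries. Of the events in the 3 lists, 525 of 816, 347 of 493 and 823 of 992 passed, so a pass is not separate support. The light change in sfps-2, 4.63 points over the library means, was 3.03 points without red light replicate 2 and 1.86 points without replicate 2 of both groups. The genotype call was lost without replicate 1 of either red light group or replicate 3 of sfps-2, with the adjusted p between 0.0186 and 0.0559 over the libraries left out. The exact two-sided permutation test gave p = 0.1 in each, the smallest possible for 3 against 3.

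ATPG kept its intron less often, but the share rose with light in both genotypes. It was 3.21%, 1.69% and 1.97% in dark wild type and 5.33%, 5.85% and 5.44% after red light, and 2.30%, 2.69% and 1.77% in dark sfps-2 and 6.35%, 6.70% and 6.56% after red light. The light and dark libraries did not overlap in either genotype, the dark libraries of both genotypes did, and after red light every sfps-2 library was above every wild-type library. The authors' deposited table gave a rise of 3.26 points in wild type (FDR = 2.54e-06) and 4.18 points in sfps-2 (FDR = 6.21e-13). By limma, within the events that the authors had already selected for change, the log2 odds rose by 1.35 (adjusted p = 0.0115) and 1.60 (adjusted p = 0.00717). After red light the group means were 5.54% ± 0.277 in wild type and 6.54% ± 0.178 in sfps-2 (SD, n = 3), a difference of 0.99 points that was not in the authors' list (exact permutation p = 0.1, the smallest possible). In the dark they were 2.29% ± 0.809 and 2.25% ± 0.460.

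The same junctions give the only values per library for the 33 genes. Reads spliced across FNR2 intron 1 numbered 257, 262 and 183 in dark wild type and 1058, 1139 and 1368 after red light, and 258, 379 and 235 in dark sfps-2 and 1856, 1396 and 886 after red light. For ATPG they numbered 920, 1164 and 623, then 2274, 2155 and 2572 in wild type, and 1042, 1753 and 941, then 2715, 2666 and 1653 in sfps-2. No dark library reached a red light library of its genotype for FNR2 or, except that sfps-2 dark replicate 2 (1753) passed sfps-2 red replicate 3 (1653), for ATPG. Replicate 2 was the highest dark library in both genotypes and for both genes. Scaled to the bins listed in the same comparison, FNR2 reads were 3.88-fold higher after light in wild type and 3.99-fold in sfps-2, and ATPG reads 2.0-fold and 1.6-fold. Scaled to the 580 bins above, a scaling chosen after seeing the data, the folds were 5.07 and 4.68 for FNR2 and 2.6 and 1.88 for ATPG. Unscaled, FNR2 reads were 0.31 (log2) higher in dark sfps-2 than in dark wild type, with overlapping libraries. On the scale of the 580 bins they were 0.41 higher, with no overlap of libraries, and 0.37 without replicate 2 of both groups. ATPG reads were 0.56 higher, with overlapping libraries; the value was 0.57 without replicate 2 of both groups, but 0.36 without sfps-2 replicate 2 alone and 0.77 without wild-type replicate 2 alone.

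**Figure D5:**
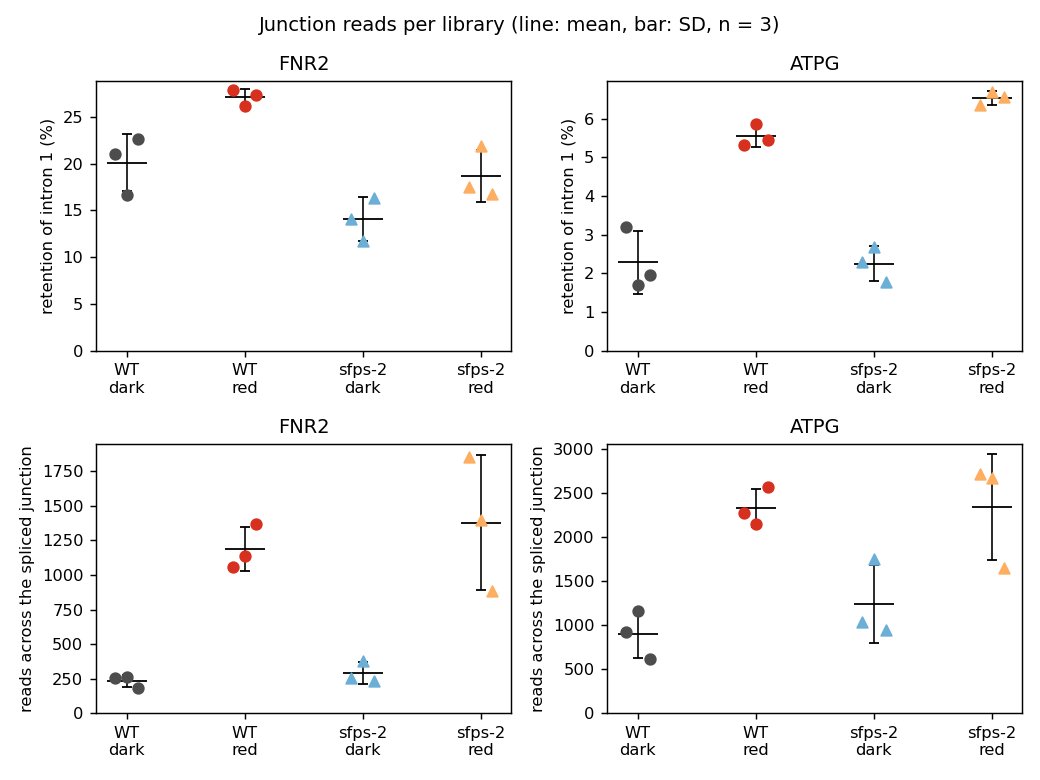
Retention of intron 1 (%, upper panels) and reads across the spliced junction (lower panels) of FNR2 and ATPG in each of the 12 libraries, with the mean as a line and the SD as a bar (n = 3 per group), axes from 0. Red light libraries are above dark libraries of the same genotype in both upper panels, and the FNR2 values of sfps-2 are below those of wild type in each light condition.

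Overlapping genes limit some of these values. By RefSeq, 11 of the 33 genes overlap another gene. The longest overlaps, all with a gene on the opposite strand, were those of PSAH-1 (788 bases), PSAG (479 bases), PSAE-1 (436 bases), FNR1 (191 bases) and PSAH-2 (174 bases). The libraries were stranded, but whether the counting used strand is not given in the sources used here, so the levels of these genes may hold reads of the neighbour.

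Other nuclear genes of the same pathway were followed in lists chosen by function. Of 17 NDH complex subunits, which recycle electrons around photosystem I, all 17 were called higher by light in wild type (median log2 2.76), beside 14.9% of all genes, and 11 in sfps-2 (2.14), beside 12.4%. The largest rises in wild type were in PNSL3 (5.12), NDHT (4.76) and NDHU (4.28). These rest on low dark levels of 1.14, 0.56 and 1.49 FPKM, and the standard errors of the 17 ran from 0.14 to 4.31. NDHT was also low in dark sfps-2, at 1.54 FPKM. In the dark 5 of 17 were called higher in sfps-2, led by NDHT (1.42), PNSB1 (0.99) and PNSB2 (0.70), with a median of 0.49, beside 5.22% of all genes. After red light 1 of 17, PNSL4, was called lower (32.6 to 20.5 FPKM, log2 -0.67), beside 3.23% of all genes.

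Of 16 assembly and repair factors 14 were called higher by light in wild type (median 1.30) and 13 in sfps-2 (0.92), led by the photosystem II assembly factor PSB28 (4.40 and 3.46). In the dark 1 of 16, PSB28, was called higher in sfps-2 (0.69), near the 5.22% of all genes. By q alone 5 of 16 were higher, beside 6.86% of all genes, and 15 of 16 differences were above 0, with a median of 0.37. Of 8 regulators of cyclic flow and state transitions, 6 were called higher by light in wild type (median 1.51), beside 14.9% of all genes. They were led by PGRL1A (2.75), PGR5 (2.47) and the kinase gene STN7 (2.18). In sfps-2 5 were called higher (0.98), beside 12.4%, and none was called between genotypes. The light change was above 0 for all 8 in wild type and for 7 in sfps-2. Of a list of minor or non-leaf isoforms and related proteins, 3 of 8 tested were called higher in wild type (PPL1 2.62, FDC1 1.68 and FDC2 1.54), with a median of 0.27. FD3, RFNR1, RFNR2, ATPC2 and PSBP-2 were not called there. In sfps-2 4 of 9 were called higher, with a median of 0.75. These medians cover different genes and do not compare the genotypes, since FD4, at 0.24 and 0.40 FPKM in sfps-2, was tested for light only there. By the test of the difference of light responses, 5 of 17 NDH genes, 3 of 16 assembly factors, 1 of 8 regulators and 2 of 8 genes of the isoform list had a smaller change in sfps-2, beside 4.58% of all genes. Without regard to the test, the difference was below 0 in 17 of 17 NDH genes (median -0.77) and 15 of 16 assembly factors (-0.51). It was below 0 in 7 of 8 regulators (-0.43) and 5 of 8 genes of the isoform list (-0.14), beside 56.9% of all genes. The smaller rise in sfps-2 was thus not particular to the 33 genes (median -0.66).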

How the data were processed

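Total RNA of 12 libraries (3 in each of 4 groups) was aligned with TopHat2 to TAIR10 and tested with Cufflinks, per the submitters' processing notes, without versions. The authors deposited group FPKM values, p-values, q-values and a test score (Cuffdiff's statistic) for each gene, with log2 changes taken here from the FPKM. Replicates were pooled in these tables. For splicing the authors deposited junction read counts per library, retained fractions per group and FDR values (ASpli, per the series' design text), only for bins they called.

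Here a gene was called at q under 0.05 and a fold of at least 1.5. The standard error of a log2 change was the change divided by the deposited test score, times the table's median ratio of that score to the normal deviate of its p-value (0.578 to 0.579); genes at the p floor rest on this extrapolation. The light responses were compared by their difference with a normal p, adjusted by Benjamini-Hochberg over 20420 genes. Paralogue pairs are given with 95% intervals and without p-values. Retention was tested with limma 3.58.1 on log2 odds within the events of a list, which the authors had already selected for change, and by exact permutation. Intervals cover the authors' error model or counting only, and depth per library is known here only from junction reads.

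Members and lists were chosen with earlier results of these data known. All 33 members are accounted for; those with the largest and smallest changes, those called, both copies of each pair, those with splicing events and up to 3 genes per direction of other lists are named. RefSeq TAIR10.1 matched the tables' coordinates for 32809 of 32810 nuclear genes. The deposited ontology results and bins without a share were not used.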

Additional observations from a re-analysis of the deposited data

Results flagged for a closer look

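The light response differed between the genotypes, by the test of the difference itself, for 15 of the 33 genes, each with the smaller rise in sfps-2. The differences in log2 light change, sfps-2 minus wild type, were -1.14 for FD1, -0.99 for PSAD-2, -0.91 for PSBS, -0.89 for PSAD-1, -0.88 for PSAL, -0.84 for PSBY, -0.83 for PSBQ-1, -0.82 for ATPD, -0.76 for PSBQ-2, -0.74 for PSAG, -0.73 for PSBW, -0.71 for PSBTN, -0.70 for PSAK, -0.70 for PSAH-1 and -0.69 for PSAE-1. With errors from the test statistic as deposited none of the 15 passed. Groups of 3 libraries were not examined for single deviating samples.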

How the results depend on the processing

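All 33 genes stayed called higher by light under every alternative tried, except that with a fold of at least 2 the count in sfps-2 was 31. The 13 genes called in dark sfps-2 became 28 with q alone and 0 with a fold of at least 2. The 15 smaller light responses became 13 with a minimum of 1 FPKM, 12 with centred changes, 15 with a pseudocount of 1 FPKM and 0 with errors from the statistic as deposited. At the authors' 10-point change 0 of 5 splicing events remained. With the bases before the gene start alone, the G-box count went from 12 to 6 and the I-box count from 18 to 9; the cause was not tested, apart from the shorter window. PSAD-1 after red light went from -0.0022 to 0.0128 when changes were centred on the median of all genes. ATPG retention in the dark turned from -0.03 points to 0.43 without wild-type replicate 1 and to 0.21 without sfps-2 replicate 3, and ranged from -0.33 to 0.43 over the libraries left out. Same-numbered libraries did not deviate together (correlations from -0.0929 to 0.0775), and with the replicate number as a block 3 of 5 retention events passed limma, as without the block. Leaving out each library in turn left 2 to 3. No library could be left out of the expression results, which exist as group values, and differences in their low genes are limited by unknown depth.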
